A study of Mus musculus with 9 samples.

Results

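The kinetochore is the protein assembly on each centromere that binds spindle microtubules, and the spindle assembly checkpoint is the signal that delays anaphase until every kinetochore is attached. A set of 39 genes for these structures was followed across all 9 libraries of a mouse transplant study, by taking the rows of the deposited count table whose Ensembl identifiers map to the gene symbols. All 39 of 39 genes were found among the 29229 genes of the table, and all 39 passed the filter on low counts, which left 19609 genes for testing. The rule goes by gene symbol and uses no measured value, but the set was chosen with earlier results of these data known.

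The libraries hold total RNA of splenic T cells sorted as live CD3+ CD45.2+ cells. The 3 allogeneic libraries came from CByJ.SJL(B6)-Ptprca/J recipients (H-2d, CD45.1), given 8 Gy of irradiation and 1000000 C57BL/6 T cells. The 3 syngeneic libraries came from B6.SJL-Ptprca Pepcb/BoyJ recipients (H-2b, CD45.1), given 9.5 Gy and 8500000 C57BL/6 T cells. Each recipient of either kind also got 5000000 T-cell-depleted C57BL/6 marrow cells, and cells were taken 7 days after transplant from pools of 2 to 4 recipients. The 3 naive libraries came from healthy, non-transplanted C57BL/6 mice, and mice were female and 8 to 12 weeks old. Recipient strain, irradiation and T-cell dose differ together between the transplant groups and cannot be told apart. Progeny of the donor marrow also carry CD45.2, so the sort does not separate them from the transferred cells by that allele.

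At the inner kinetochore, nucleosomes with the histone variant CENP-A carry the constitutive centromere-associated network (CCAN), which is present through the cell cycle. The MIS12 complex links it to KNL1 and to the NDC80 complex, the main coupler to microtubules, and the chromosomal passenger complex corrects wrong attachments. Checkpoint proteins gather on KNL1 and hold back the anaphase-promoting complex through MAD2 and BUBR1. Resting T cells are out of cycle, and many genes of mitosis are switched on late in the cycle through the cell cycle genes homology region (CHR), an element bound by the DREAM and MuvB complexes, often with upstream CCAAT boxes bound by NF-Y.

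RefSeq promoter windows on GRCm38.p6, from 250 bases before to 50 bases after a start, were found for 34 of the 39 genes. Windows were searched on both strands for TTTGAA or TTCGAA, the CHR, and for CCAAT. The 6 stretches printed here run 5′ to 3′ on the strand of the gene, from 120 bases before the start to 30 after it, with the motif matches in capitals (TTCAAA and ATTGG are matches on the opposite strand). Cdca8, Bub1, Cenpf and Cenpa show a CHR just past the start, and Mis12 and Cenpo, which have none, show genes that changed little between the groups. The 6 were picked as examples, and genes not printed go the other way, such as Cenpe, which rose without a CHR.
Cdca8 (chr4:124936888-124937037, minus strand): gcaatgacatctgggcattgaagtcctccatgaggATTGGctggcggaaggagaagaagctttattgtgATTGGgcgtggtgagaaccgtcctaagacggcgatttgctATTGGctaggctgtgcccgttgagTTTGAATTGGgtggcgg
Bub1 (chr2:127831830-127831979, minus strand): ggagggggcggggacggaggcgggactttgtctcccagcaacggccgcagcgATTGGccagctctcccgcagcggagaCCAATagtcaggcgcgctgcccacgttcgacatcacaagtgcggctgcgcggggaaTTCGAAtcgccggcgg
Cenpa (chr5:30666766-30666915, plus strand): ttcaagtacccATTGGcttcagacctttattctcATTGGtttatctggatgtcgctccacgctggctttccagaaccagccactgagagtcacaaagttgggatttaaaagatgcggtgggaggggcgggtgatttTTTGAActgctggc
Cenpf (chr1:189688057-189688206, minus strand): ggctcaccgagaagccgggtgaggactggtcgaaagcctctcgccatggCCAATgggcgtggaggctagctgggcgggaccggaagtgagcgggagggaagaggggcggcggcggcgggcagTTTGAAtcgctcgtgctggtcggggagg
Mis12 (chr11:71019491-71019640, plus strand): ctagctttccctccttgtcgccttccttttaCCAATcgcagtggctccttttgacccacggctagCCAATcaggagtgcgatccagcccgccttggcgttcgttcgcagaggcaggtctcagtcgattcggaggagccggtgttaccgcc
Cenpo (chr12:4233936-4234085, minus strand): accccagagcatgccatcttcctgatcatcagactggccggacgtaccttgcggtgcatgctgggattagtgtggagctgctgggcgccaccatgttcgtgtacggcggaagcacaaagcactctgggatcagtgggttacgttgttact

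A CHR was present in 17 of the 34 genes (50.0%), beside 21.7% of the 27025 genes with a window. A CCAAT box was present in 24 (70.6%), beside 41.1%, and 15 (44.1%) had both in the same window, beside 8.61%. Counting a place shared by overlapping windows of a gene once, there were 18 CHR matches, of which 11 lay in the 50 bases after the start, in 11 genes (32.4%, beside 2.87% of all genes), namely Bub1, Bub1b, Cdca8, Cenpa, Cenpf, Knl1, Ndc80, Plk1, Sgo1, Spc25 and Ttk. Of the 44 CCAAT matches, 36 lay before the start. In Cdca8 the CHR and a CCAAT match overlap in their letters. In 32 of the 37 windows of these genes, the last 40 bases were found in a GENCODE M21 transcript of the gene. Those of Birc5, Cenpn, Mad2l1, Pmf1 and Spc25 were not, so that check did not bear out their starts. A match is a description of the sequence and not a tested site, and in the 100 bases before the start alone 4 of the 34 genes (11.8%) held a CHR, beside 7.18% of all genes.

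**Figure D1:**
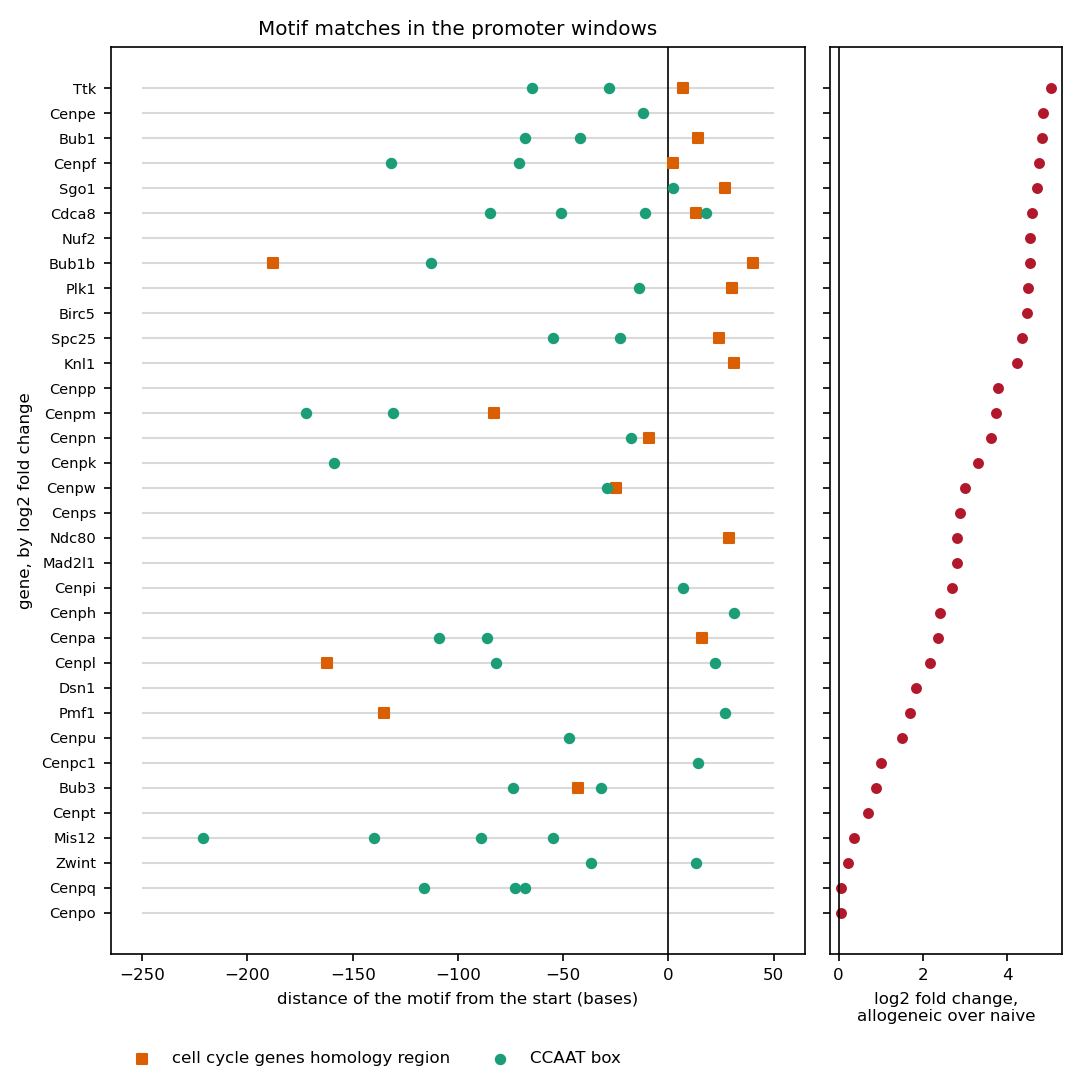
CHR (squares) and CCAAT (circles) matches in the promoter windows of the 34 genes with a window (rows), by distance from the start in bases, beside each gene's log2 fold change of allogeneic over naive libraries. Genes are ordered by that fold change, CHR matches cluster in the bases after the start in the upper rows, and the lowest rows, Cenpo, Cenpq, Zwint and Mis12, have no CHR match. Against that order, Cenpe (4.85), Nuf2 (4.55) and Birc5 (4.47) in the upper rows have no CHR match, and Bub3 (0.89) in the lower rows has a CHR match.

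Libraries held 103953932 to 176678189 counts in the allogeneic group, 107823729 to 130302320 in the syngeneic and 113382060 to 138312206 in the naive group. Levels are given as CPM, counts scaled to the library total, and 3 counts, the lowest level read as present, were 0.0170 to 0.0289 CPM. Gm26917 and Gm42418, read from background knowledge as a ribosomal RNA locus, took 7.87 to 17.2% of counts in allogeneic libraries, 19.4 to 22.4% in syngeneic and 15.8 to 18.8% in naive libraries. T-cell markers (14 of 14 detected in each group) summed to 6800 to 7318 CPM in allogeneic, 4981 to 6212 CPM in syngeneic and 6541 to 7191 CPM in naive libraries. Of these 14, 8 were called higher and 1 lower (Cd8a) in allogeneic over syngeneic libraries, with a median log2 fold change of 0.50. Over all genes tested, 24.3% were called higher and 20.7% lower in that comparison. Erythroid markers (14 of the 15 listed were in the table, all 14 detected in each group) summed to 58.8 to 159 CPM in allogeneic, 2529 to 6691 CPM in syngeneic and 33.1 to 34.6 CPM in naive libraries. Neutrophil markers (10 of 10 detected in each group) summed to 626 to 1124 CPM in allogeneic, 416 to 1384 CPM in syngeneic and 4.24 to 8.13 CPM in naive libraries. Macrophage and monocyte markers (13 listed) summed to 90.3 to 180 CPM in allogeneic (13 detected), 68.4 to 251 CPM in syngeneic (13) and 7.83 to 9.11 CPM in naive libraries (12, with Fcgr1 at 0). Though these sums overlapped between the transplant groups, 9 of the 13 fell and 2 rose in allogeneic over syngeneic libraries. All 14 erythroid markers fell in that comparison, and 0 of the 10 neutrophil markers rose or fell. Like the T-cell list, some other lists were higher in allogeneic than in syngeneic libraries without overlap, as were the 11 genes called between those groups further on. B-cell markers summed to 968 to 1505 CPM in allogeneic, 536 to 962 CPM in syngeneic and 469 to 495 CPM in naive libraries, though between the transplant groups 1 of the 12 rose (Ighm) and 8 fell. Plasma-cell markers summed to 203 to 263 CPM in allogeneic, 61.4 to 116 CPM in syngeneic and 51.3 to 57.9 CPM in naive libraries, where 2 of 6 rose and 0 fell. Progenitor, mast cell and megakaryocyte markers summed to 451 to 518 CPM in allogeneic, 122 to 153 CPM in syngeneic and 63.3 to 79.6 CPM in naive libraries, where 1 of 10 rose (Ly6a) and 3 fell. Dendritic-cell markers summed to 195 to 268 CPM in allogeneic, 64.5 to 92.5 CPM in syngeneic and 33.4 to 35.9 CPM in naive libraries, where 1 of 8 rose (Itgax) and 5 fell. NK-cell markers summed to 33.0 to 41.2 CPM in allogeneic, 11.3 to 19.0 CPM in syngeneic and 10.4 to 14.97 CPM in naive libraries, with 3 of 7 higher and 3 lower. Klra8 of that list was at 0 in allogeneic libraries and Clec9a of the dendritic list at 0 in naive ones, while all other genes of these 5 lists were detected in each group. These other cells can hold dividing precursors, and their part in the results was not tested. In such bulk RNA, a larger share of dividing cells and more RNA per cell cannot be told apart.

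Taken as a sum, the 39 genes reached 2123, 1857 and 1955 CPM in allogeneic libraries, 1281, 1750 and 1871 CPM in syngeneic and 367, 383 and 391 CPM in naive libraries. Every transplant library stood above every naive one, while the allogeneic and syngeneic ranges overlapped. The median gene lay at 26.1 ± 3.0 CPM in allogeneic, 25.2 ± 4.0 in syngeneic and 3.81 ± 0.87 in naive libraries (SD, n = 3 each). Without Gm26917 and Gm42418 in the total, the order of the transplant groups turned, with medians of 29.6 CPM (allogeneic) and 31.8 CPM (syngeneic). Syngeneic library 1 stood apart, as the lowest of its group for 36 of the 39 genes, and allogeneic library 1 was the highest of its group for 30. These libraries also stood apart over genes in general. Chi-square per degree of freedom was 362 and 335 for allogeneic library 1 against libraries 2 and 3, and 44.6 between those. For syngeneic library 1 it was 136 and 114, and 33.3 between libraries 2 and 3. Gm26917 and Gm42418 took 17.2% of counts in allogeneic library 1, and 9.06 and 7.87% in libraries 2 and 3. Syngeneic library 1 also had the lowest erythroid (2529 CPM), neutrophil (416 CPM) and macrophage (68.4 CPM) sums of its group and the highest T-cell sum (6212 CPM). The part of these markers in its low values was not tested.

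**Figure D2:**
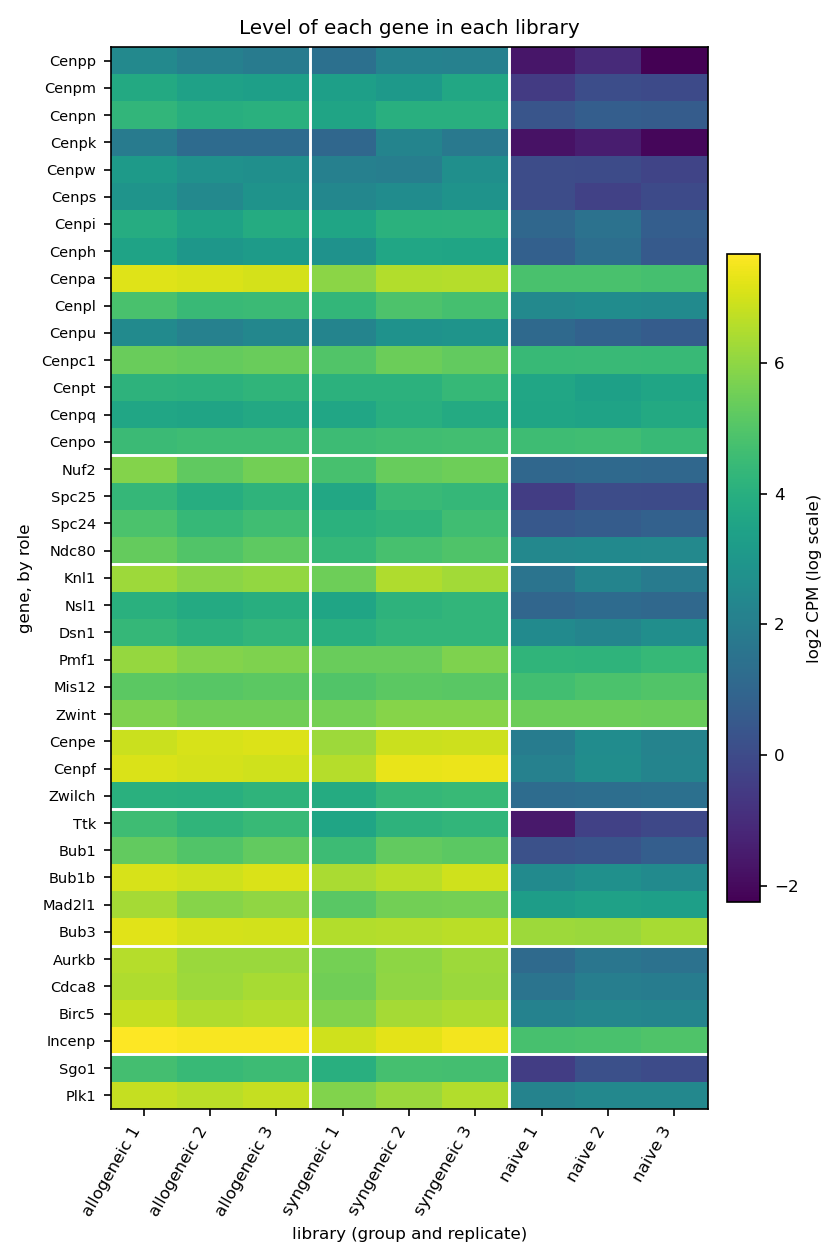
Level of each of the 39 genes (rows, grouped by role and ordered by allogeneic over naive change) in each of the 9 libraries (columns), as log2 CPM by colour. Naive columns are dark for most rows, while Cenpo, Cenpq, Zwint, Mis12 and Bub3 keep nearly the same colour across all libraries.

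Against naive T cells, the question was how far these genes moved in donor T cells after transplant. In allogeneic libraries 36 of the 39 genes rose and 0 fell in edgeR's quasi-likelihood test (Benjamini-Hochberg adjusted p under 0.05), beside 31.8% of all genes tested that rose and 25.9% that fell. In syngeneic libraries 37 rose and 0 fell, beside 22.4% of all genes that rose and 19.5% that fell. The median log2 fold change of the 39 genes was 2.88 in allogeneic and 2.94 in syngeneic libraries, while that of all genes was −0.01 in allogeneic and 0.01 in syngeneic libraries. In each comparison 32 genes rose at least 2-fold, beside 17.0% of all genes in the allogeneic and 13.4% in the syngeneic comparison. All transplant libraries lay above all naive libraries for 37 genes in each comparison, beside 32.5% of all genes in the allogeneic and 25.4% in the syngeneic comparison, with Cenpo and Cenpq the exceptions. Both comparisons use the same 3 naive libraries and so are not independent. Of the calls, 35 of 36 in allogeneic (not Mis12) and 34 of 37 in syngeneic libraries (not Bub3, Mis12 and Zwint) held under each of 19 other settings of the analysis.

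**Figure D3:**
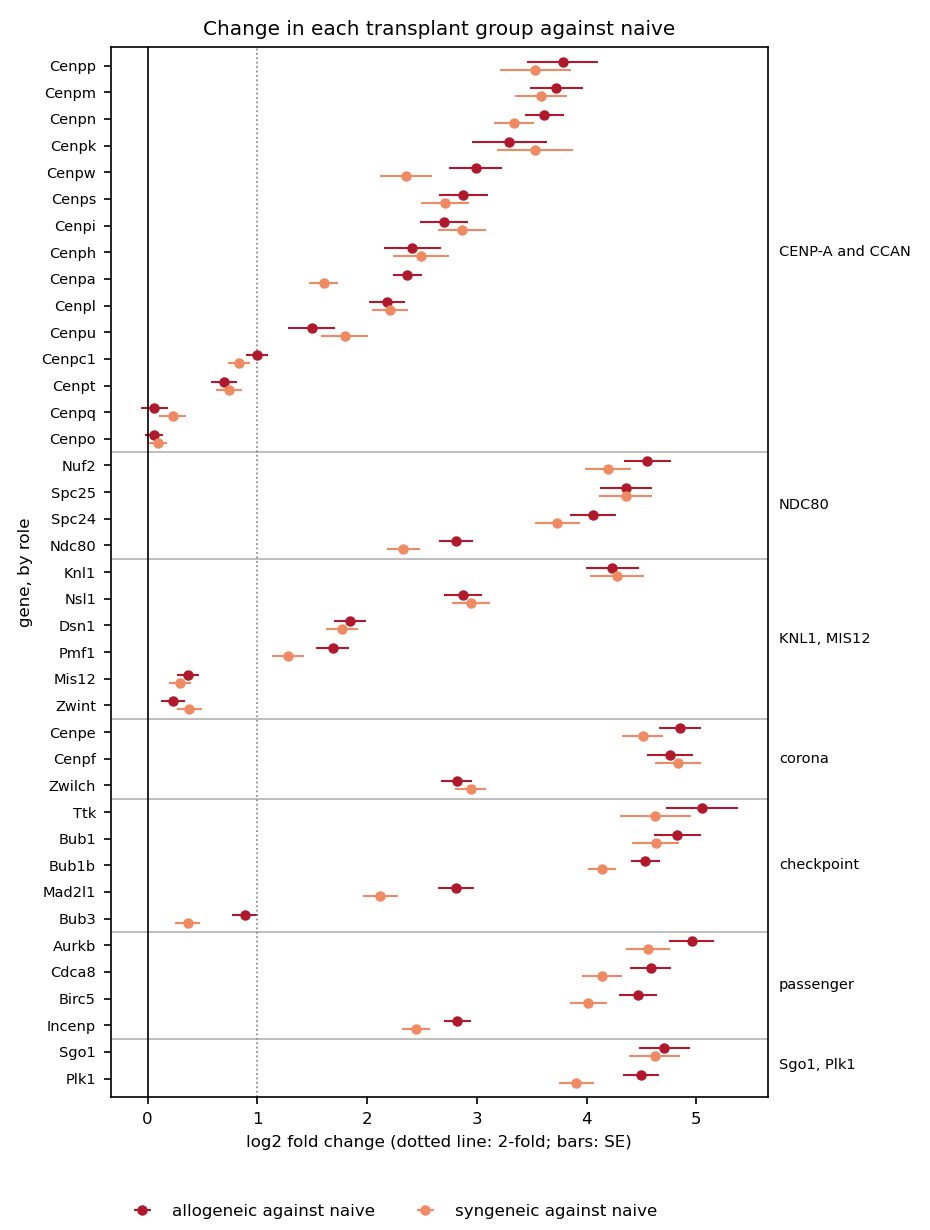
Log2 fold change with SE of each of the 39 genes (rows, by role) in allogeneic (dark) and syngeneic (light) libraries against naive libraries, with a dotted line at 2-fold. Most points lie right of the dotted line. For 7 genes both points lie left of it, of which Cenpo, Cenpq, Zwint and Mis12 lie close to 0.

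Of the 15 genes of CENP-A and the CCAN, 13 rose in allogeneic and 13 in syngeneic libraries against naive ones, with median log2 fold changes of 2.41 in allogeneic and 2.36 in syngeneic libraries. Cenpp, a subunit of the CENP-O group, had 5.28, 4.15 and 3.67 CPM in allogeneic, 2.62, 4.40 and 4.36 CPM in syngeneic and 0.318, 0.476 and 0.209 CPM in naive libraries. Naive libraries were far below both transplant groups, and the log2 fold change over naive was 3.78 ± 0.33 (SE, adjusted p = 1.85e-06) in allogeneic and 3.53 ± 0.32 (adjusted p = 7.46e-06) in syngeneic libraries. Cenpo, its partner in the same group, had 22.6, 24.2 and 24.3 CPM in allogeneic, 23.5, 24.8 and 25.7 CPM in syngeneic and 24.4, 24.7 and 21.9 CPM in naive libraries. The 3 groups overlapped, and its log2 fold change over naive was 0.06 ± 0.08 (adjusted p = 0.572) in allogeneic and 0.10 ± 0.08 (adjusted p = 0.378) in syngeneic libraries. Cenpq, another subunit of the group, gave 0.06 ± 0.12 (adjusted p = 0.697) in allogeneic and 0.23 ± 0.12 (adjusted p = 0.172) in syngeneic libraries. Cenpu, which docks Plk1, rose by 1.50 ± 0.21 in allogeneic and 1.79 ± 0.22 in syngeneic libraries. Exons of Cenpo, Cenpu and Cenpp overlap genes on the opposite strand, by 19.0% with Adcy3, 26.7% with Primpol and 12.3% with Ippk. Other genes of the set have smaller overlaps, among them Mis12 with Derl2 (7.69%) and Cenpk with Ppwd1 (4.45%). Ppwd1 had up to 2627 counts in a library, beside a lowest count of 27 for Cenpk. Since the strand setting used in counting is unknown, counts of all these genes may hold reads of the genes they overlap.

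Among the other CCAN genes, those of the CENP-H, I, K and M group rose by 2.41 (Cenph) to 3.72 (Cenpm) in allogeneic and by 2.49 (Cenph) to 3.58 (Cenpm) in syngeneic libraries, on the log2 scale. Cenpn, whose protein reads the CENP-A nucleosome, rose by 3.61 ± 0.18 in allogeneic and 3.34 ± 0.18 in syngeneic libraries. Its partner Cenpl rose by 2.18 ± 0.16 in allogeneic and 2.21 ± 0.16 in syngeneic libraries. In the histone-fold group, Cenps and Cenpw rose by 2.88 and 2.99 in allogeneic and by 2.71 and 2.36 in syngeneic libraries. Cenpt, which recruits NDC80 complexes, rose by 0.70 ± 0.12 in allogeneic and 0.74 ± 0.12 in syngeneic libraries. Cenpc1, the gene of the CENP-C scaffold, rose by 1.00 ± 0.10 in allogeneic and 0.83 ± 0.10 in syngeneic libraries. Cenpa itself rose by 2.36 ± 0.13 in allogeneic (adjusted p = 5.53e-08) and by 1.60 ± 0.13 in syngeneic libraries (adjusted p = 2.87e-06).

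In the outer kinetochore, all 4 NDC80 genes rose against naive in both transplant groups, with medians of 4.21 in allogeneic and 3.96 in syngeneic libraries. Nuf2, at the microtubule-binding end of the complex, had 56.6, 38.5 and 47.9 CPM in allogeneic, 27.6, 41.8 and 45.0 CPM in syngeneic and 2.10, 2.2 and 2.08 CPM in naive libraries. Ndc80, which pairs with it, had 40.2, 31.8 and 37.0 CPM in allogeneic, 20.6, 28.0 and 31.1 CPM in syngeneic and 5.28, 5.54 and 5.37 CPM in naive libraries. Transplant libraries were above naive ones for both genes, with log2 fold changes of 4.55 ± 0.21 (allogeneic) and 4.19 ± 0.21 (syngeneic) for Nuf2. Those of Ndc80 were 2.81 ± 0.15 (allogeneic) and 2.33 ± 0.15 (syngeneic). Spc24 and Spc25, at the end that joins the kinetochore, rose by 4.06 and 4.36 in allogeneic and by 3.73 and 4.35 in syngeneic libraries. Per kilobase of exons, the 4 subunits spanned 5.59 to 9.72 CPM per kb in allogeneic and 4.09 to 7.95 in syngeneic libraries, and 0.291 to 0.831 in naive libraries.

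In the KNL1 and MIS12 complexes, 5 of 6 genes rose in allogeneic and 6 of 6 in syngeneic libraries, with medians of 1.76 in allogeneic and 1.52 in syngeneic libraries. Knl1, the scaffold on which BUB1 and BUB3 gather, had 73.9, 62.4 and 67.0 CPM in allogeneic, 44.8, 91.1 and 78.9 CPM in syngeneic and 2.94, 4.71 and 3.67 CPM in naive libraries. It rose by 4.23 ± 0.25 (adjusted p = 7.13e-08) in allogeneic and by 4.28 ± 0.25 (adjusted p = 1.90e-07) in syngeneic libraries. Zwint, which binds KNL1, had 54.1, 45.9 and 45.8 CPM in allogeneic, 48.4, 58.8 and 58.0 CPM in syngeneic and 43.9, 43.1 and 42.8 CPM in naive libraries. Its naive libraries lay below the transplant libraries by little, with 0.23 ± 0.11 (adjusted p = 0.0979) in allogeneic and 0.38 ± 0.11 (adjusted p = 0.0175) in syngeneic libraries. Within the MIS12 complex, Mis12 rose by 0.37 ± 0.10 in allogeneic (adjusted p = 0.00868) and 0.29 ± 0.10 in syngeneic libraries (adjusted p = 0.0367). Nsl1 rose by 2.87 in allogeneic and 2.94 in syngeneic libraries. In allogeneic libraries Mis12 was at 11.8 and Nsl1 at 2.89 CPM per kb, against 9.53 and 0.411 CPM per kb in naive libraries, so this pair of subunits lay closer together in allogeneic libraries.

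**Figure D4:**
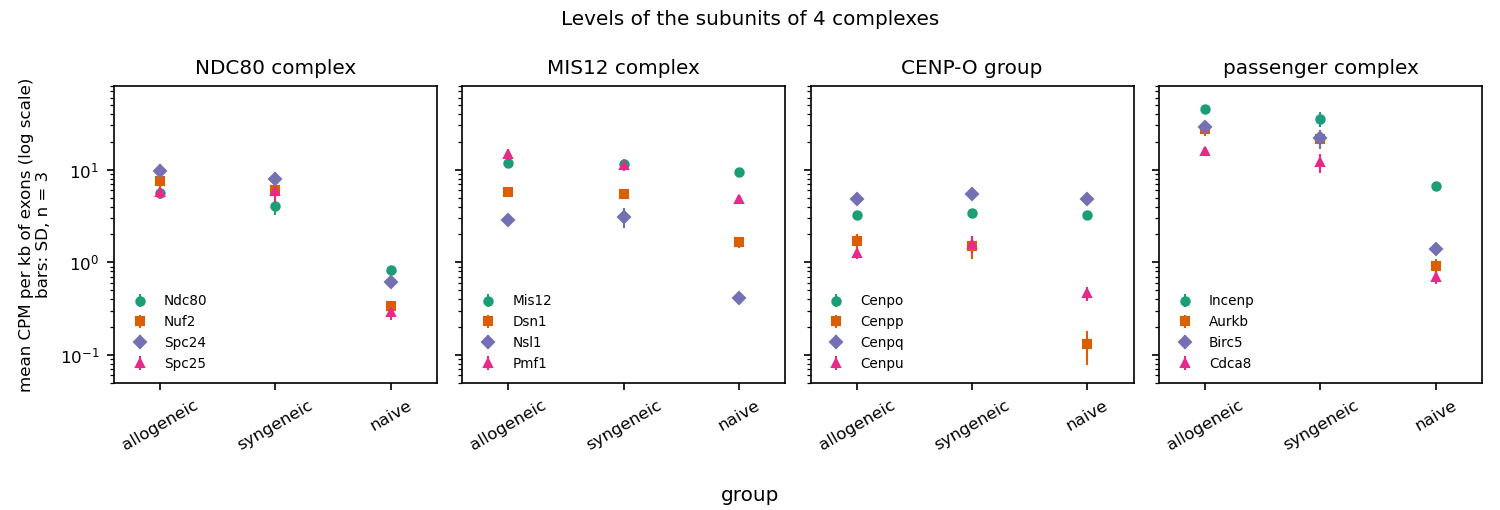
Mean level of each subunit of the NDC80, MIS12 and CENP-O groups and the passenger complex, in CPM per kb of merged exons on a log axis, with SD over 3 libraries, in allogeneic, syngeneic and naive libraries. All NDC80 and passenger subunits lie lower in naive libraries, where Incenp (6.69 CPM per kb) stands well above the other passenger subunits. Mis12, Cenpo and Cenpq stay near their transplant levels.

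Over all 39 genes, the SD of the log2 level per kilobase was 1.41 in allogeneic, 1.27 in syngeneic and 1.87 in naive libraries. The highest in naive libraries were Bub3 (11.0 CPM per kb), Zwint (9.76) and Mis12 (9.53). In allogeneic libraries Plk1 (49.5), Incenp (45.4) and Bub1b (31.3) led, and in syngeneic libraries Incenp (35.6), Plk1 (33.6) and Bub1b (24.1). Cenpk was the lowest in all 3 groups, at 0.527 CPM per kb in allogeneic, 0.642 in syngeneic and 0.0565 in naive libraries. In both transplant groups 12 genes were over 16-fold above naive, and 7 stayed under 2-fold (Cenpc1, Cenpo, Cenpq, Cenpt, Zwint, Mis12 and Bub3).

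The corona genes, whose proteins form the outermost layer before attachment, all 3 rose against naive, with medians of 4.76 in allogeneic and 4.51 in syngeneic libraries. Cenpe, a kinesin motor that moves chromosomes along microtubules, had 118, 134 and 142 CPM in allogeneic, 74.5, 119 and 122 CPM in syngeneic and 3.73, 5.92 and 4.56 CPM in naive libraries. It rose by 4.85 ± 0.19 (adjusted p = 5.11e-09) in allogeneic and by 4.51 ± 0.19 (adjusted p = 2.94e-08) in syngeneic libraries. Zwilch, of the complex that brings dynein, had 16.7, 16.2 and 18.2 CPM in allogeneic, 14.6, 20.8 and 21.5 CPM in syngeneic and 2.36, 2.52 and 2.66 CPM in naive libraries, and rose by 2.82 ± 0.14 in allogeneic and 2.94 ± 0.14 in syngeneic libraries. Cenpf, a large coiled-coil protein of the corona, rose by 4.76 ± 0.21 in allogeneic and 4.83 ± 0.21 in syngeneic libraries.

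All 5 checkpoint genes rose in both groups against naive, with medians of 4.54 in allogeneic and 4.14 in syngeneic libraries. Ttk, the kinase that starts checkpoint signalling (MPS1), had 23.9, 18.9 and 22.0 CPM in allogeneic, 12.0, 18.1 and 19.3 CPM in syngeneic and 0.333, 0.803 and 0.924 CPM in naive libraries. Its rise of 5.05 ± 0.33 (adjusted p = 1.79e-07) in allogeneic libraries was the largest among the 39 genes there, and it was 4.63 ± 0.32 in syngeneic libraries. Bub3, which also binds nuclear partners outside mitosis, had 152, 130 and 129 CPM in allogeneic, 93.5, 95.7 and 101 CPM in syngeneic and 73.8, 73.2 and 84.0 CPM in naive libraries. Its 3 groups did not overlap, and it rose over naive by 0.89 ± 0.12 (adjusted p = 6.28e-05) in allogeneic and 0.36 ± 0.12 (adjusted p = 0.0278) in syngeneic libraries. The kinase gene Bub1 rose by 4.83 ± 0.22 in allogeneic and 4.63 ± 0.21 in syngeneic libraries.

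The passenger genes also rose in both groups, 4 of 4 each, with medians of 4.52 in allogeneic and 4.08 in syngeneic libraries. Aurkb, the kinase of the complex, had 94.4, 72.3 and 73.7 CPM in allogeneic, 49.1, 63.8 and 74.6 CPM in syngeneic and 2.23, 3.13 and 2.77 CPM in naive libraries. It rose by 4.96 ± 0.20 (adjusted p = 6.33e-09) in allogeneic and 4.56 ± 0.20 (adjusted p = 3.35e-08) in syngeneic libraries. Incenp, the scaffold, had the highest naive level of the complex, 6.69 CPM per kb, and rose by 2.82 ± 0.13 in allogeneic and 2.44 ± 0.12 in syngeneic libraries. Sgo1, which protects centromeric cohesin, had 26.4, 21.8 and 23.6 CPM in allogeneic, 16.0, 27.2 and 26.0 CPM in syngeneic and 0.723, 1.14 and 1.02 CPM in naive libraries, and rose by 4.71 ± 0.23 in allogeneic and 4.62 ± 0.23 in syngeneic libraries. The gene of the mitotic kinase Plk1 rose by 4.49 ± 0.16 in allogeneic and 3.91 ± 0.16 in syngeneic libraries.

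Between the transplant groups, the question was whether donor T cells that met foreign histocompatibility antigens differed from those in a matched host. In allogeneic against syngeneic libraries, 11 of the 39 genes rose and 0 fell, which is 28.2% of the set beside 24.3% of all genes that rose and 20.7% that fell, so the share was near that of all genes. The median log2 fold change was 0.17, with −0.02 over all genes, and no gene moved by 2-fold, beside 7.82% of all genes that rose and 11.6% that fell by that much. The same 11 genes were the ones whose allogeneic libraries all lay above all syngeneic libraries in CPM, beside 27.4% of all genes. The CPM total includes Gm26917 and Gm42418, which took 7.87 to 17.2% of allogeneic and 19.4 to 22.4% of syngeneic counts. Without them allogeneic levels would rise less than syngeneic ones, so narrow separations would not hold. The groups would then overlap for Plk1, Bub1b, Incenp, Birc5, Cdca8, Ndc80, Pmf1 and Cenpw. They would stay apart for Cenpa, Mad2l1 and Bub3. The separation was not recounted in that way over all genes, and it is not separate evidence for the 11 calls. The call held under each of the 19 other settings for 4 genes: Cenpa, Mad2l1, Bub3 and Plk1.

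The count rests on single libraries. Leaving out allogeneic library 1 gave 5 genes that rose. Leaving out syngeneic library 1 gave 6, and leaving out syngeneic library 2 also gave 6. With both library 1s left out, 4 genes rose (Cenpa, Mad2l1, Plk1 and Bub3) and 7 fell (Cenpf, Cenpk, Cenpl, Cenpu, Knl1, Nsl1 and Zwint, by 0.33 to 0.78 on the log2 scale). That setting was chosen after seeing that these were the highest allogeneic and the lowest syngeneic library for most of the 39 genes, so the choice itself shifts the differences downward.

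**Figure D5:**
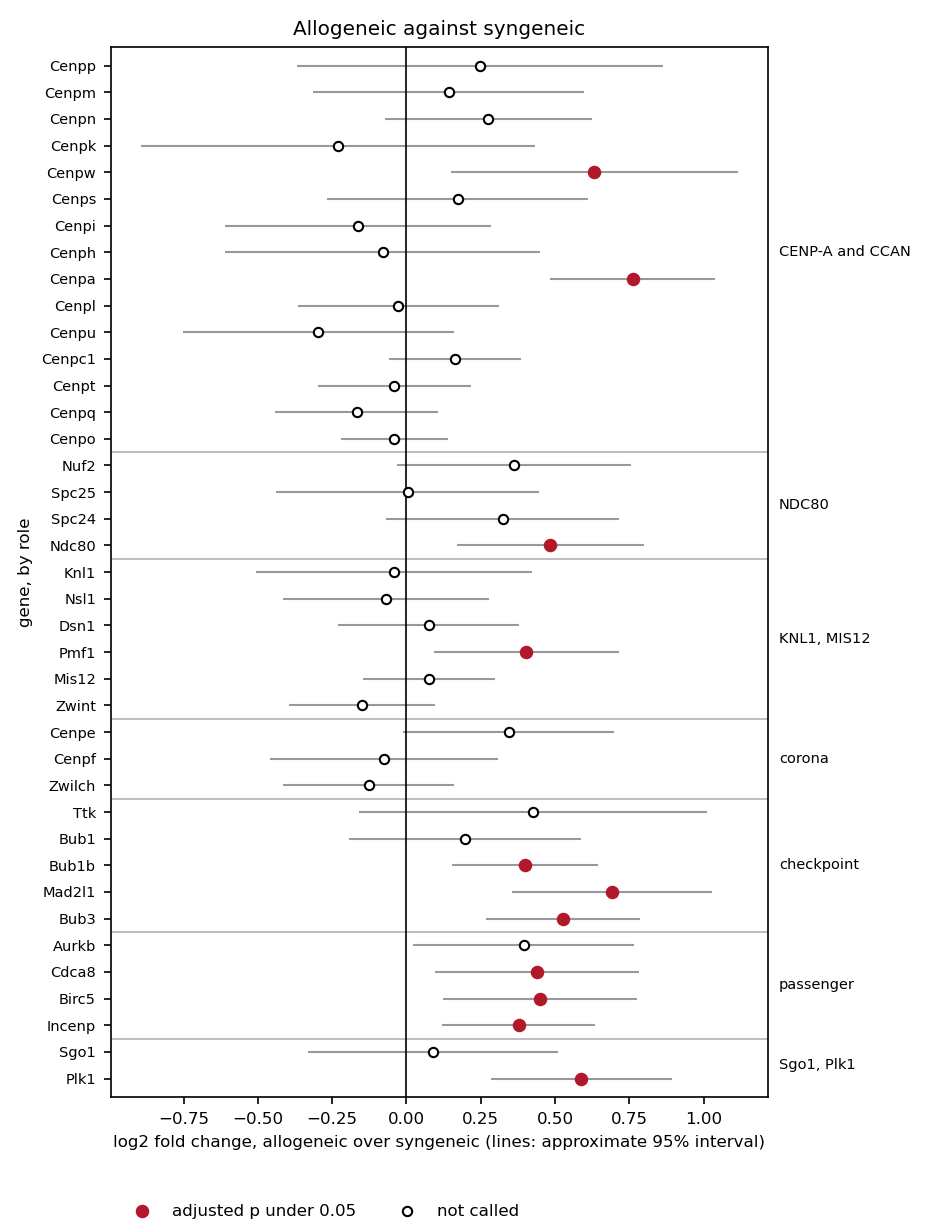
Log2 fold change of allogeneic over syngeneic libraries for each of the 39 genes (rows, by role), with an approximate 95% interval. The 11 filled points are genes called at an adjusted p under 0.05, all to the right of 0, and all points lie within 2-fold.

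Of the checkpoint genes, 3 of 5 rose in allogeneic over syngeneic libraries, with a group median of 0.42. Mad2l1, whose protein binds CDC20 and blocks the anaphase-promoting complex, had 81.5, 58.0 and 66.1 CPM in allogeneic and 35.1, 47.4 and 48.1 CPM in syngeneic libraries (9.71 to 10.8 in naive), a rise of 0.69 ± 0.15 (adjusted p = 0.00368). Bub3 rose by 0.53 ± 0.12 (adjusted p = 0.00383) with the values given above. Bub1b, the gene of BUBR1, had 136, 126 and 139 CPM in allogeneic and 85.2, 101 and 123 CPM in syngeneic libraries (5.69 to 6.64 in naive), a rise of 0.40 ± 0.11 (adjusted p = 0.0132). For Bub1b the highest syngeneic library was just under the lowest allogeneic one, and the call held in 16 of the 19 other settings. Bub1 and Ttk gave 0.20 ± 0.18 (adjusted p = 0.385) and 0.42 ± 0.27 (adjusted p = 0.213).

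In the inner kinetochore 2 of 15 genes rose, beside 24.3% of all genes, with a group median of −0.03. Cenpa had 145, 137 and 132 CPM in allogeneic, 62.0, 92.3 and 95.3 CPM in syngeneic and 28.2, 28.6 and 26.9 CPM in naive libraries. The groups did not overlap, and the allogeneic rise of 0.76 ± 0.13 (adjusted p = 0.000584) was the largest of the 39 genes in this comparison. Cenpw, a histone-fold partner of CENP-T, had 8.82, 6.81 and 6.49 CPM in allogeneic, 4.18, 4.03 and 6.40 CPM in syngeneic and 1.04, 1.01 and 0.863 CPM in naive libraries. Its highest syngeneic library nearly reached the lowest allogeneic one, with a rise of 0.63 ± 0.22 (adjusted p = 0.0361). The lowest value of all 39 genes was that of Cenpu, at −0.30 ± 0.21 (adjusted p = 0.263).

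In the outer kinetochore, Ndc80 rose by 0.48 ± 0.14 (adjusted p = 0.0176), with the per-library values given above. It was 1 of 4 in its complex, beside 24.3% of all genes that rose. Pmf1, a MIS12 subunit, had 68.4, 56.4 and 54.2 CPM in allogeneic, 42.1, 42.3 and 53.7 CPM in syngeneic and 18.8, 18.5 and 20.8 CPM in naive libraries. It was 1 of 6 in its group, with a rise of 0.40 ± 0.14 (adjusted p = 0.0378), and its groups came within a small margin of overlap. None of the 3 corona genes passed the edgeR test, with values from −0.13 (Zwilch) to 0.34 (Cenpe, adjusted p = 0.103).

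Of the passenger genes 3 of 4 rose, with a group median of 0.42, beside 24.3% of all genes that rose. None of the 3 calls held without allogeneic library 1, and none held without syngeneic library 1. Birc5 (survivin) had 112, 91.0 and 94.6 CPM in allogeneic, 55.5, 80.9 and 87.3 CPM in syngeneic and 4.43, 4.95 and 4.73 CPM in naive libraries, a rise of 0.45 ± 0.15 (adjusted p = 0.0288). Cdca8 (borealin) had 89.3, 74.6 and 82.3 CPM in allogeneic, 45.9, 66.2 and 73.6 CPM in syngeneic and 2.96, 4.01 and 3.77 CPM in naive libraries, a rise of 0.44 ± 0.16 (adjusted p = 0.0387). Incenp had 205, 193 and 192 CPM in allogeneic, 126, 155 and 182 CPM in syngeneic and 27.7, 28.1 and 31.0 CPM in naive libraries, a rise of 0.38 ± 0.12 (adjusted p = 0.0216). In these 3 genes syngeneic library 1 was the lowest transplant library. Aurkb gave 0.39 ± 0.17 (adjusted p = 0.0777). Plk1 had 113, 100 and 113 CPM in allogeneic, 56.1, 73.3 and 92.2 CPM in syngeneic and 4.60, 5.27 and 5.23 CPM in naive libraries, and rose by 0.59 ± 0.14 (adjusted p = 0.00535), while Sgo1 gave 0.09 ± 0.19 (adjusted p = 0.723). For the 28 genes that did not pass, approximate 95% intervals ran from −0.90 (Cenpk) to 1.01 (Ttk), and 27 of them stayed within 2-fold.

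The wider pathway was read from 5 lists, without a set test. Beside them, 24.3% of all genes rose and 20.7% fell in allogeneic over syngeneic libraries, with a median of −0.02. Of 18 genes of the anaphase-promoting complex, the ubiquitin ligase that the checkpoint holds back, 8 rose and 0 fell in allogeneic over syngeneic libraries (median 0.26), from Cdc16 (0.26 ± 0.09) to Anapc16 (0.75 ± 0.10, adjusted p = 0.000107). Of 15 mitotic entry genes 5 rose and 0 fell (median 0.26), led by Ccnb2, a mitotic cyclin, with 0.93 ± 0.17 (adjusted p = 0.00114). Of 38 measured centromere and kinetochore partners 13 rose and 2 fell (median 0.15), from Kntc1, a partner of Zwilch (−0.66 ± 0.16), to Trip13, an ATPase that remodels MAD2 (0.78 ± 0.17). Of 16 cohesin and separase genes 3 rose and 1 fell (median 0.02), with Pttg1, the separase inhibitor securin, at 0.72 ± 0.10. Of 18 DREAM and E2F regulators 2 rose and 3 fell (median −0.09), from Tfdp2 (−2.25 ± 0.24) to Rbl2, the p130 pocket protein of DREAM (1.18 ± 0.08).

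Cdc20, the activator that MAD2 and BUBR1 bind, had 120, 90.3 and 95.8 CPM in allogeneic, 49.8, 60.7 and 72.8 CPM in syngeneic and 6.15, 6.69 and 7.25 CPM in naive libraries. The groups did not overlap, and it rose by 0.78 ± 0.16 (adjusted p = 0.00206) in allogeneic over syngeneic libraries. Mki67, the gene of the proliferation marker Ki-67, had 1203, 1317 and 1395 CPM in allogeneic, 1000, 1867 and 1859 CPM in syngeneic and 37.0, 55.3 and 42.9 CPM in naive libraries. Its transplant groups overlapped, with −0.24 ± 0.19 (adjusted p = 0.316). Hjurp, the chaperone that deposits CENP-A, averaged 265 ± 12 CPM in allogeneic, 281 ± 31 in syngeneic and 168.0 ± 1.9 in naive libraries (SD, n = 3 each), and gave −0.06 ± 0.08 (adjusted p = 0.511) between the transplant groups. Against naive libraries all 15 mitotic entry genes rose in both transplant groups, with medians of 4.48 in allogeneic and 4.09 in syngeneic libraries. The partners rose in 29 of 38 genes in allogeneic (3 fell) and in 26 of 38 in syngeneic libraries (1 fell). Of all genes, 31.8% rose and 25.9% fell in allogeneic over naive libraries, and 22.4% rose and 19.5% fell in syngeneic over naive libraries.

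By promoter class, the 15 genes with both motifs had a median log2 fold change of 4.36 in allogeneic over naive libraries (0.89 to 5.05). The 9 genes with a CCAAT box but no CHR had 1.50 (0.06 to 4.85), the 8 with neither had 2.84 (0.06 to 4.55), and Knl1 and Ndc80, with a CHR alone, had 4.23 and 2.81. The ranges overlapped, and Nuf2 (4.55) and Birc5 (4.47), without either motif, stood beside Bub1b (4.54) and Plk1 (4.49), which have both. The window of Birc5 was among those whose end was not found in a transcript of the gene.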

How the data were processed

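The authors deposited raw read counts per gene for 9 libraries. Alignment to GRCm38 used TopHat2 (2.0.13) with Bowtie2 (2.2.1), per the submitters' processing notes, which also list HTSeq (0.6.1). Strand setting, annotation release and treatment of multiple alignments were not given in the sources used here. Libraries were stranded and depleted of ribosomal RNA, per the labels' protocols. The labels' strain tag names the syngeneic strain for all 9 libraries, against the protocols, and was not used. The labels do not say if naive libraries were pools.

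Genes kept by filterByExpr were scaled by TMM and tested with edgeR 4.0.16 (glmQLFit, glmQLFTest) in 1 model of all 9 libraries by group, with calls at p under 0.05 after Benjamini-Hochberg adjustment over 19609 genes. The test was also run on simulated counts, drawn without library-wide differences between replicates. That run could not show how the test handles such differences. SE is the log2 fold change over the square root of F. CPM divides by the column total, and lengths are merged GENCODE M21 exons. Alternatives used DESeq2 1.42.0, limma 3.58.1 voom, other scalings, filters and designs, and left-out libraries. Replicates differed beyond sampling noise. The set of genes, the roles and all lists were chosen with earlier results of these data known. Values in every library are printed, per role, for the genes of highest and lowest allogeneic over naive change, and for genes called between the transplant groups (if over 10, the 10 largest); of each pathway list at most the highest and lowest called gene, with Mki67, Cdc20 and Hjurp. Promoters are RefSeq's, GRCm38.p6.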

Additional observations from a re-analysis of the deposited data

How the results depend on the processing

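Depth was ample for most of the 39 genes, and the number of libraries limits precision. In allogeneic over syngeneic libraries the 11 genes that rose became 7 with a CPM of at least 1 in 3 libraries and 7 with the 2 groups alone. Leaving out 1 library gave 5 to 12 genes higher and 0 to 1 lower (Zwint, without allogeneic library 1). With both library 1s left out, chosen after seeing the data and from the levels of these genes, 4 were higher and 7 lower, and Cenpm (−0.048), Cenpp (−0.16), Cenps (−0.052), Nuf2 (−0.0045), Spc25 (−0.34), Mis12 (−0.0054), Dsn1 (−0.086), Bub1 (−0.076) and Sgo1 (−0.22) changed sign. The cause was not tested. Leaving out 1 library also turned the sign of genes not called, with ranges of −0.30 to 0.061 (Cenph), −0.56 to 0.033 (Cenpk), −0.21 to 0.071 (Cenpl), −0.062 to 0.28 (Cenpm), −0.12 to 0.034 (Cenpt), −0.17 to 0.15 (Spc25), −0.25 to 0.14 (Knl1), −0.037 to 0.16 (Dsn1), −0.21 to 0.055 (Nsl1), −0.26 to 0.049 (Cenpf) and −0.078 to 0.19 (Sgo1), and of Cenpq over naive, −0.012 to 0.17. Spc25 was −0.067 with the CPM minimum, −0.033 by library size alone, −0.0085 with limma-voom, −0.0022 with the 2 groups alone and −0.010 with TMM without Gm26917 and Gm42418. Without those genes the median level came to 29.6 CPM (allogeneic) and 31.8 CPM (syngeneic), so their order turned. In the 100 bases before the start 4 genes (11.8%) held a CHR, beside 7.18% of all genes.

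With the replicate block 11 genes rose between the transplant groups (Cenpe gained, Birc5 lost), 36 in allogeneic and 36 in syngeneic libraries over naive, and Knl1 was 0.0096. The main model did not treat same-numbered libraries as pairs. Their deviations from the group means correlated at 0.01, 0.02 and 0.01 between the transplant groups, across 11064 genes. The values were −0.15, 0.19 and −0.20 for allogeneic and naive, and 0.10, 0.50 and −0.02 for syngeneic and naive libraries. Differently numbered libraries gave −0.16 to 0.13, −0.28 to 0.34 and −0.47 to 0.39 in the same order of comparisons. With 3 libraries per group, such correlations cannot exclude a pairing.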
